A study of Mus musculus with 14 samples.

Results

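The genes of the mitochondrial death pathway described here were 9 transcripts of the BCL2 family and its apoptosome partner, found by symbol among the 18781 genes of the expression table. They comprised 7 pro-death genes (Bax, Bak1, Bbc3, Pmaip1, Bid, Bcl2l11 and Apaf1) and 2 pro-survival genes (Bcl2l1 and Mcl1), and all 9 were in the table and passed the filter on low values. RNA was sequenced from untreated organoids, which are epithelial cultures grown from stem cells of mouse small intestinal crypts, in Intesticult medium. WT organoids (n = 4) carried, by the labels, floxed alleles of both Atg16l1 and Rnaseh2b and no Cre recombinase, whereas the study's text names only floxed Rnaseh2b for the sequenced controls. Atg16l1ΔIEC organoids (n = 4) carried floxed Atg16l1 with Villin-Cre, Rnaseh2bΔIEC organoids (n = 2) floxed Rnaseh2b with Villin-Cre, and Atg16l1/Rnaseh2bΔIEC organoids (n = 4) both floxed genes with Villin-Cre. Villin-Cre deletes floxed genes in cells of the intestinal epithelium, ATG16L1 is needed for the lipidation step of autophagy, and RNASEH2B is a subunit of the enzyme that removes ribonucleotides from DNA. Age and sex of the donor mice were not given in the labels, and nothing states that the libraries of a genotype came from separate animals, so p-values may measure only technical spread.

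Cells commit to mitochondrial apoptosis when BAX and BAK form pores in the outer mitochondrial membrane. The BH3-only proteins (PUMA from Bbc3, NOXA from Pmaip1, BID and BIM from Bcl2l11) trigger BAX and BAK or block the pro-survival proteins BCL-XL (from Bcl2l1) and MCL1, which hold the effectors in check. Cytochrome c released through the pores assembles APAF1 into the apoptosome, which activates caspase-9, and in the intestinal epithelium this route removes crypt cells with DNA damage.

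All values are log2 normalized values of unknown sequencing depth, and differences between genotypes are log2 fold changes with the standard error (SE) of limma, a linear model fitted across 12802 genes with a mean of at least 3.32. Adjusted p-values are limma's with Benjamini-Hochberg adjustment over those 12802 genes, and a gene was called when its adjusted p was under 0.05. Atg16l1 averaged 9.46 ± 0.05 (SD, n = 4) in WT, 6.92 ± 0.29 (n = 4) in Atg16l1ΔIEC and 8.39 ± 0.19 (n = 4) in Atg16l1/Rnaseh2bΔIEC libraries, and Rnaseh2b averaged 8.54 ± 0.13 in WT, 7.18 ± 0.04 (n = 2) in Rnaseh2bΔIEC and 7.81 ± 0.10 in Atg16l1/Rnaseh2bΔIEC libraries. Each targeted gene was therefore lower in the genotypes labelled as deleted, and less so in the Atg16l1/Rnaseh2bΔIEC libraries than in the single knockouts. All 7 epithelial markers were tested, with a log2 summed level of 17.14 to 17.34 in every library, while 4 of the 17 stromal, immune and endothelial genes were above the filter on low values: Pdgfrb at a mean of 5.46, Itgam at 5.63, Cd14 at 6.85 and Pecam1 at 4.37. Of these 4, Pdgfrb was lower in Atg16l1/Rnaseh2bΔIEC than in WT (-0.26, adjusted p = 0.0314) and than in Atg16l1ΔIEC, and no other difference passed. Of the defining markers, Col1a2, Cd3e, Cd79a and Adgre1 were below 0 in every library, and Col1a1, Pdgfra, Acta2 and Ptprc averaged 2.08, 1.47, 2.01 and 0.49. Sequencing lane differed between groups: WT libraries were in lane 1, Atg16l1ΔIEC and Rnaseh2bΔIEC libraries in lane 2, and Atg16l1/Rnaseh2bΔIEC libraries 1 and 2 in lane 2 with 3 and 4 in lane 1, so lane and genotype cannot be told apart outside the Atg16l1/Rnaseh2bΔIEC group. Libraries 1 and 2 of a genotype, and libraries 3 and 4, deviated together from their genotype mean (r across genes 0.41 to 0.86 in 6 pairs), and a fit with these pairs as a random block is given beside the counts below. That fit also took the 2 Rnaseh2bΔIEC libraries as a pair, which cannot be checked from 2 libraries. Lane as a covariate was estimated only from Atg16l1/Rnaseh2bΔIEC libraries 1 and 2 against 3 and 4, which are also the pairs of that genotype. Differences given with lane as a covariate therefore carry this pair difference and cannot separate lane from pair. In bulk RNA, fewer cells of a type and less RNA per cell cannot be told apart.

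Compared per kilobase of annotated exon, the effectors and Mcl1 were the most abundant of the 9 transcripts. This length takes all annotated exons of a gene, not those of the transcripts expressed, so levels are only roughly comparable between genes. In WT organoids Bak1 led with a log2 level per kb of 10.08 ± 0.03 (SD, n = 4), followed by Mcl1 at 9.92 ± 0.08 and Bax at 9.87 ± 0.04, and the libraries of Mcl1 and Bax overlapped. Pmaip1 (9.18 ± 0.16) and Bcl2l1 (8.003 ± 0.05) came next, each apart from its neighbours in every library. Apaf1 (7.23 ± 0.05) and Bid (7.15 ± 0.10) overlapped in level per kb, and Bbc3 (6.20 ± 0.16) and Bcl2l11 (5.69 ± 0.08) were the lowest. The spread between genes was thus far larger than any difference between genotypes: the genotype means of the log2 values spanned 0.38 for Bax, between 0.20 and 0.25 for Apaf1, Bbc3, Bcl2l1, Bid, Pmaip1, Bak1 and Mcl1, and 0.06 for Bcl2l11. For Pmaip1 and Bcl2l11 that span was close to the pooled SD within genotypes (0.20 and 0.08).

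**Figure D1:**
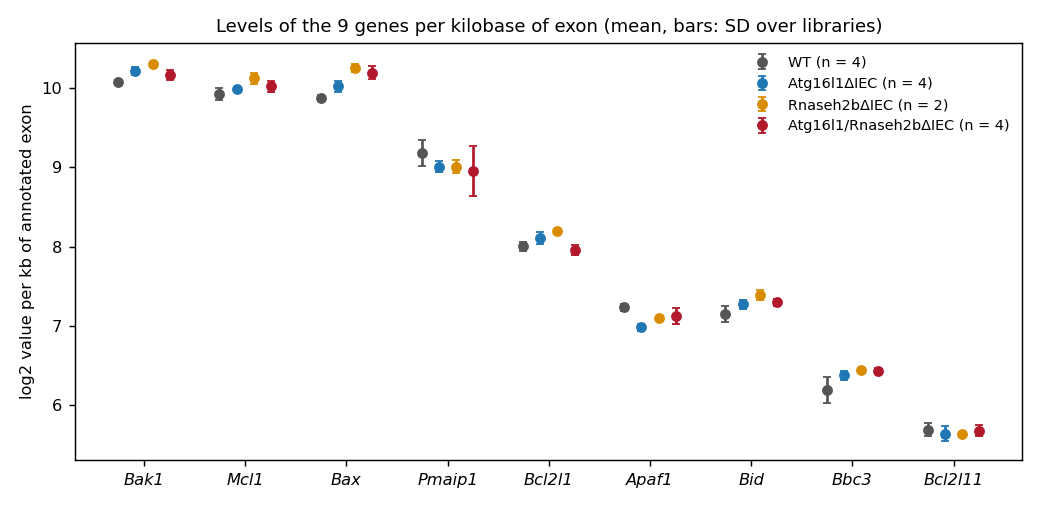
Mean log2 value per kb of annotated exon (y axis) of each gene (x axis, ordered by WT level), with SD over libraries as bars and colours for the 4 genotypes. Bak1, Mcl1 and Bax lie near 10, Bcl2l11 at 5.69 in WT, and the genotypes of a gene lie close together compared with the distance between genes.

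Bax (ENSMUSG00000003873, GRCm38 chr7:45461697-45466898, minus strand), a pore-forming effector and a known target of p53, changed most. Its log2 values were 10.57, 10.49, 10.50 and 10.55 in WT, 10.78, 10.65, 10.65 and 10.62 in Atg16l1ΔIEC, 10.94 and 10.87 in Rnaseh2bΔIEC, and 10.94, 10.88, 10.80 and 10.76 in Atg16l1/Rnaseh2bΔIEC libraries. Every knockout library lay above every WT library, the genotype means were highest in both genotypes without Rnaseh2b, and Atg16l1ΔIEC library 1 overlapped the Atg16l1/Rnaseh2bΔIEC libraries. Bax rose by 0.38 (SE 0.05, adjusted p = 0.000479, 30.0% on the linear scale) in Rnaseh2bΔIEC, by 0.32 (SE 0.04, adjusted p = 0.00125) in Atg16l1/Rnaseh2bΔIEC and by 0.15 (SE 0.04, adjusted p = 0.0368) in Atg16l1ΔIEC organoids against WT. It was also higher in Atg16l1/Rnaseh2bΔIEC than in Atg16l1ΔIEC organoids (0.17, adjusted p = 0.0148), while Atg16l1/Rnaseh2bΔIEC and Rnaseh2bΔIEC organoids differed by -0.06 (95% interval -0.18 to 0.06, adjusted p = 0.448). Within lane 1, the 2 Atg16l1/Rnaseh2bΔIEC libraries were above WT by 0.25, and with lane as a covariate the difference of Atg16l1ΔIEC from WT was 0.02 (adjusted p = 0.894).

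Bak1 (ENSMUSG00000057789, chr17:27019810-27029009, minus strand), the other effector, had a narrower range. Its log2 values were 11.36, 11.37, 11.34 and 11.31 in WT, 11.43, 11.44, 11.53 and 11.51 in Atg16l1ΔIEC, 11.59 and 11.54 in Rnaseh2bΔIEC, and 11.41, 11.51, 11.39 and 11.40 in Atg16l1/Rnaseh2bΔIEC libraries. All knockout libraries again exceeded the WT libraries, but the double knockout was the closest to WT. Bak1 rose by 0.22 (SE 0.04, adjusted p = 0.00244) in Rnaseh2bΔIEC and by 0.13 (SE 0.03, adjusted p = 0.0154) in Atg16l1ΔIEC against WT, and the difference of 0.08 in Atg16l1/Rnaseh2bΔIEC against WT did not pass (adjusted p = 0.108). It was lower in Atg16l1/Rnaseh2bΔIEC than in Rnaseh2bΔIEC organoids, by -0.14 (SE 0.04, adjusted p = 0.0281). With lane as a covariate the differences from WT were 0.15 (adjusted p = 0.105) in Rnaseh2bΔIEC and 0.07 (adjusted p = 0.437) in Atg16l1ΔIEC, and with the pairs as a random block their adjusted p-values were 0.0616 and 0.205. Annotated exons of Ggnbp1 on the opposite strand share 18.2% of the Bak1 exon bases, and those of Gm45808 on the same strand 12.2% of the Bax exon bases, and the strand setting of the counting is not given in the sources used here, so reads in the shared bases are uncertain.

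The windows of 250 bases before the RefSeq start of Bax, Bak1 and Bcl2l1 are shown because Bax and Bak1 were called together in both single knockouts and Bcl2l1 was the pro-survival gene that differed most between knockouts. The sequences are from RefSeq on GRCm38.p6, 5′ to 3′ on the minus strand (Bax chr7:45466899-45467148, Bak1 chr17:27028628-27028877 and the most upstream of the 3 Bcl2l1 starts, chr2:152831729-152831978). Capitals mark matches, on either strand, to the p53 decamer motif, the GC box GGGCGG, the CCAAT box CCAAT, the TATA box TATAAA or the E-box CACGTG.
Bax: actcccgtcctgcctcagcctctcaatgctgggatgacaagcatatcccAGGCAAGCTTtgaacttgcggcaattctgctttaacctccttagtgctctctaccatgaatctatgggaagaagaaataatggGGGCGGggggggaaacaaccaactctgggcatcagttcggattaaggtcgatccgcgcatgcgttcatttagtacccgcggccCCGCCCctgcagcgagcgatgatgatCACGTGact
Bak1: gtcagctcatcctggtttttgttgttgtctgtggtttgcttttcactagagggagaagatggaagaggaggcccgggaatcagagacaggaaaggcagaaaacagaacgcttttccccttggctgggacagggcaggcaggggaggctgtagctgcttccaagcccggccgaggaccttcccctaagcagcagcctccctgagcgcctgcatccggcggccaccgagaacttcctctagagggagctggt
Bcl2l1: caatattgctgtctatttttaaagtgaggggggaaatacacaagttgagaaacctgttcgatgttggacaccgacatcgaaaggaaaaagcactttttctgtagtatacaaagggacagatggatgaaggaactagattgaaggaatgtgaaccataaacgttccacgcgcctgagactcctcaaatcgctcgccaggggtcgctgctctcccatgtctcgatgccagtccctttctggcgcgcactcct

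The Bax window held 1 match to the p53 decamer, from 201 to 192 bases before the start, 2 GC boxes and an E-box, and no match overlapped another. The Bak1 and Bcl2l1 windows held none of the 5 motifs. The window of Pmaip1, on chromosome 18, is not reported here. For the other 8 of the 9 genes RefSeq gave 13 start windows. Of these, 9 held a GC box, 3 a CCAAT box, 2 an E-box, 1 the p53 decamer and 0 a TATA box. Of all 32851 promoter windows of this length, 32.7% held a GC box, 33.8% a CCAAT box, 6.02% the E-box, 7.13% the p53 decamer and 12.4% a TATA box. A match describes letters only, and the absence of one says nothing about the factor.

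Of the BH3-only genes, Bbc3 was called higher than in WT in Rnaseh2bΔIEC and Atg16l1/Rnaseh2bΔIEC, and Bid in Rnaseh2bΔIEC only. Pmaip1 and Bcl2l11 did not pass in any comparison over all 14 libraries without lane as a covariate. Bbc3 (ENSMUSG00000002083, chr7:16308393-16318205, plus strand), which encodes PUMA, a p53-induced activator of BAX, had log2 values of 7.17, 7.12, 7.36 and 7.48 in WT, 7.45, 7.49, 7.39 and 7.52 in Atg16l1ΔIEC, 7.54 and 7.53 in Rnaseh2bΔIEC, and 7.56, 7.47, 7.53 and 7.51 in Atg16l1/Rnaseh2bΔIEC libraries. WT libraries 1 and 2 were low and WT library 4 reached the knockout values, so the groups separated fully only for Rnaseh2bΔIEC against WT. Bbc3 rose by 0.25 (SE 0.08, adjusted p = 0.0451) in Rnaseh2bΔIEC and by 0.24 (SE 0.07, adjusted p = 0.0357) in Atg16l1/Rnaseh2bΔIEC, and the difference was 0.18 (adjusted p = 0.0849) in Atg16l1ΔIEC organoids. With lane as a covariate the first 2 differences were 0.25 (adjusted p = 0.227) and 0.24 (adjusted p = 0.0939). With the pairs as a random block their adjusted p-values were 0.243 and 0.259.

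Bid (ENSMUSG00000004446, chr6:120891930-120916853, minus strand), which links death receptors to mitochondria after cleavage by caspase-8, had log2 values of 8.86, 8.93, 9.04 and 9.08 in WT, 9.05, 9.05, 9.14 and 9.16 in Atg16l1ΔIEC, 9.18 and 9.26 in Rnaseh2bΔIEC, and 9.15, 9.11, 9.18 and 9.08 in Atg16l1/Rnaseh2bΔIEC libraries. The Rnaseh2bΔIEC libraries were above all WT libraries, and those of the other genotypes overlapped WT library 4. Bid rose by 0.24 (SE 0.06, adjusted p = 0.0151) in Rnaseh2bΔIEC against WT, with differences of 0.15 (adjusted p = 0.0672) in Atg16l1/Rnaseh2bΔIEC and 0.12 (adjusted p = 0.122) in Atg16l1ΔIEC. For Rnaseh2bΔIEC against WT the adjusted p was 0.135 with lane as a covariate and 0.143 with the pairs as a random block. Exons of Bcl2l13 on the opposite strand share 17.7% of the Bid exon bases, with Bcl2l13 at a mean of 11.18 to 11.27 in the 4 genotypes.

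Pmaip1 (ENSMUSG00000024521, chr18:66458533-66465565, plus strand), which encodes NOXA, the inhibitor of MCL1, varied most between libraries of a genotype. Its log2 values were 10.55, 10.44, 10.79 and 10.73 in WT, 10.36, 10.50, 10.53 and 10.44 in Atg16l1ΔIEC, 10.40 and 10.51 in Rnaseh2bΔIEC, and 10.06, 10.21, 10.64 and 10.69 in Atg16l1/Rnaseh2bΔIEC libraries. The Atg16l1/Rnaseh2bΔIEC libraries of lane 2 (1 and 2) were the lowest of all and those of lane 1 (3 and 4) within the WT range, so lane and pair cannot be told apart within this genotype. The differences from WT were -0.17 (SE 0.15, adjusted p = 0.423) in Rnaseh2bΔIEC, -0.17 (SE 0.12, adjusted p = 0.352) in Atg16l1ΔIEC and -0.23 (SE 0.12, adjusted p = 0.219) in Atg16l1/Rnaseh2bΔIEC. With lane as a covariate they were 0.36 (adjusted p = 0.0939), 0.36 (adjusted p = 0.0707) and 0.04 (adjusted p = 0.82), respectively, so their direction depended on how lane was treated. With lane as a covariate Pmaip1 was also lower in Atg16l1/Rnaseh2bΔIEC than in Rnaseh2bΔIEC (adjusted p = 0.0309) and Atg16l1ΔIEC (adjusted p = 0.0147), and the interaction described below was -0.68 (adjusted p = 0.0241). Within lane 2, Pmaip1 was lower in Atg16l1/Rnaseh2bΔIEC (n = 2) than in Rnaseh2bΔIEC (n = 2, -0.32, adjusted p = 0.0158) and Atg16l1ΔIEC (n = 4, -0.32, adjusted p = 0.0217). In these fits 28.9% and 16.2% of all genes were called, respectively. The Atg16l1/Rnaseh2bΔIEC libraries of lane 2 are a pair, so these p-values may measure spread within pairs rather than between genotypes. Bcl2l11 (ENSMUSG00000027381, chr2:128126038-128162547, plus strand), which encodes BIM, ranged from 8.52 to 8.77 over all libraries, with overlapping groups and differences from WT of -0.06 to -0.02 (adjusted p = 0.553 to 0.871).

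Apaf1 (ENSMUSG00000019979, chr10:90989311-91082770, minus strand), the scaffold of the apoptosome, was the pro-death gene that was lower in a knockout. Its log2 values were 10.47, 10.42, 10.40 and 10.35 in WT, 10.13, 10.12, 10.15 and 10.22 in Atg16l1ΔIEC, 10.27 and 10.27 in Rnaseh2bΔIEC, and 10.42, 10.33, 10.23 and 10.22 in Atg16l1/Rnaseh2bΔIEC libraries. All Atg16l1ΔIEC and Rnaseh2bΔIEC libraries were below all WT libraries, and Atg16l1/Rnaseh2bΔIEC libraries 3 and 4 were at the level of the single knockouts while 1 overlapped WT. Apaf1 fell by 0.25 (SE 0.05, adjusted p = 0.00242) in Atg16l1ΔIEC against WT, with differences of -0.14 (SE 0.06, adjusted p = 0.0794) in Rnaseh2bΔIEC and -0.11 (SE 0.05, adjusted p = 0.112) in Atg16l1/Rnaseh2bΔIEC. It was higher in Atg16l1/Rnaseh2bΔIEC than in Atg16l1ΔIEC by 0.14 (SE 0.05, adjusted p = 0.037). With lane as a covariate its difference from WT was -0.29 (adjusted p = 0.0121) in Rnaseh2bΔIEC and -0.19 (adjusted p = 0.0138) in Atg16l1/Rnaseh2bΔIEC.

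The pro-survival genes were both higher in Rnaseh2bΔIEC than in WT organoids, and Bcl2l1 was not higher in the double knockout. Bcl2l1 (ENSMUSG00000007659, chr2:152780668-152831728, minus strand), which encodes BCL-XL, had log2 values of 10.27, 10.21, 10.15 and 10.17 in WT, 10.22, 10.27, 10.37 and 10.36 in Atg16l1ΔIEC, 10.39 and 10.39 in Rnaseh2bΔIEC, and 10.12, 10.08, 10.19 and 10.21 in Atg16l1/Rnaseh2bΔIEC libraries. The Atg16l1/Rnaseh2bΔIEC libraries lay below every library of both single knockouts and overlapped WT, while the Rnaseh2bΔIEC libraries lay above every WT library. Bcl2l1 rose by 0.19 (SE 0.05, adjusted p = 0.0191) in Rnaseh2bΔIEC against WT and was lower in Atg16l1/Rnaseh2bΔIEC than in Rnaseh2bΔIEC (-0.24, SE 0.05, adjusted p = 0.00617) and Atg16l1ΔIEC organoids (-0.16, SE 0.04, adjusted p = 0.0207). Against WT, the differences were 0.10 (adjusted p = 0.107) in Atg16l1ΔIEC and -0.05 (95% interval -0.145 to 0.042, adjusted p = 0.436) in Atg16l1/Rnaseh2bΔIEC. Mcl1 (ENSMUSG00000038612, chr3:95658788-95663176, plus strand), a short-lived inhibitor of BAK, had log2 values of 11.60, 11.67, 11.78 and 11.72 in WT, 11.77, 11.77, 11.73 and 11.76 in Atg16l1ΔIEC, 11.94 and 11.84 in Rnaseh2bΔIEC, and 11.88, 11.80, 11.78 and 11.71 in Atg16l1/Rnaseh2bΔIEC libraries. The Rnaseh2bΔIEC libraries lay above all WT libraries and the other genotypes overlapped WT, and Mcl1 rose in Rnaseh2bΔIEC by 0.20 (SE 0.05, adjusted p = 0.0151), with differences of 0.10 (adjusted p = 0.128) in Atg16l1/Rnaseh2bΔIEC and 0.07 (adjusted p = 0.307) in Atg16l1ΔIEC. With lane as a covariate the difference of Mcl1 in Rnaseh2bΔIEC was 0.10 (adjusted p = 0.384).

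**Figure D2:**
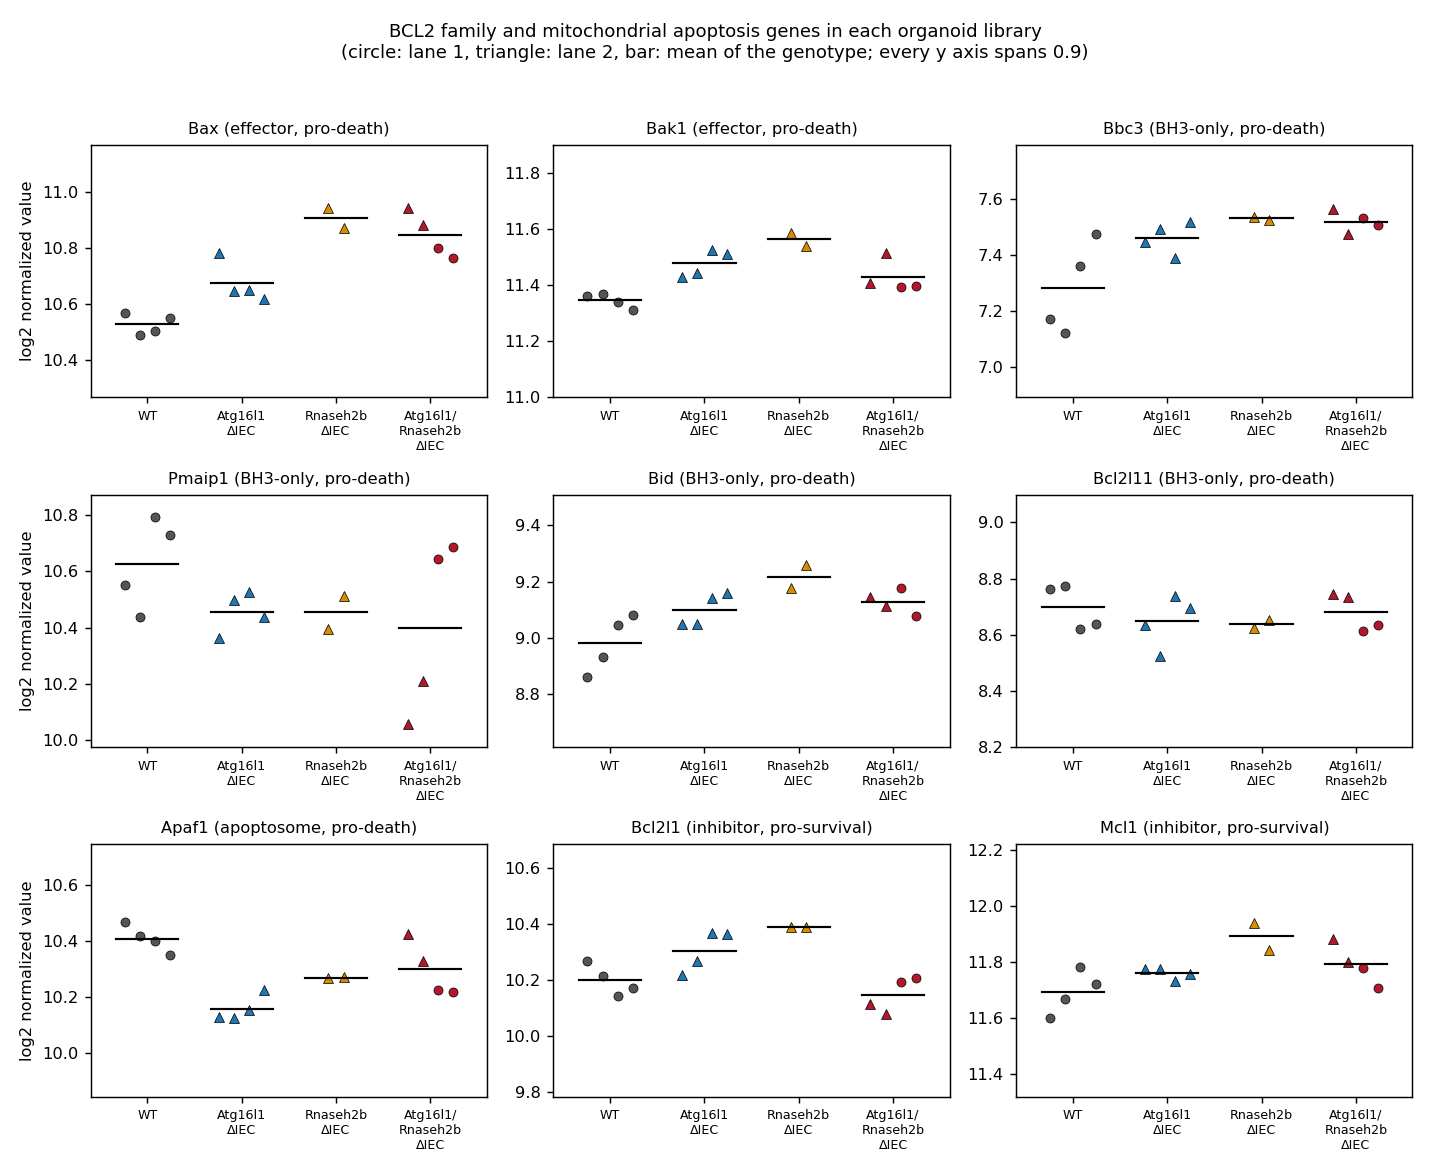
Log2 normalized value (y axis, spanning 0.9 in every panel) of each gene in each library, by genotype (x axis). Circles are lane 1, triangles lane 2 and bars genotype means. Bax rises from 10.53 in WT to 10.91 in Rnaseh2bΔIEC and 10.85 in Atg16l1/Rnaseh2bΔIEC, Bcl2l1 is lowest in Atg16l1/Rnaseh2bΔIEC (10.15), and Pmaip1 splits by lane within Atg16l1/Rnaseh2bΔIEC.

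In Rnaseh2bΔIEC against WT, 6 of the 9 genes were called higher (Bax, Bbc3, Bid, Bak1, Mcl1 and Bcl2l1) and 0 lower, where 14.4% of all 12802 genes were called higher and 12.3% lower. The 6 comprised 4 of 7 pro-death and both pro-survival genes, so the rise was not confined to a single side of the pathway. The same 6 genes had every knockout library above every WT library and Apaf1 had both below, against a background of 28.4% of genes above and 27% below for these group sizes. The median fold change of the 9 genes was 0.20 on the log2 scale, beside 0.00 over all genes. With the library pairs as a random block, Bax alone of the 9 remained past the threshold (adjusted p = 0.022), where 5.69% of all genes were called. With lane as a covariate Bax, Bcl2l1 and Apaf1 were called, where 11.7% of all genes were. When each of the 14 libraries was left out in turn, the calls of Bax and Bak1 were kept in all 14 fits, Bbc3 was called in only 4 of them, and Bid and Bcl2l1 were lost without either Rnaseh2bΔIEC library and Mcl1 without library 1. The exact permutation test used here doubles the smaller one-sided p, and in that form 2 against 4 libraries cannot give a two-sided p below 0.133.

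In Atg16l1ΔIEC against WT, 2 of the 9 genes were called higher (Bax and Bak1) and 1 lower (Apaf1), with backgrounds of 8.73% and 10.4%. The same 3 genes were those whose libraries did not overlap, where 11.5% of all genes had every library above and 13.1% every library below. Each of the 3 reached 0.0286 in a two-sided exact permutation test, the smallest p that 4 against 4 libraries allow. Only Apaf1 remained past the threshold with the pairs as a random block (adjusted p = 0.048) or with lane as a covariate (-0.41). In these fits 3% and 12.4% of all genes were called, respectively. Bak1 and Apaf1 were called in all 14 fits that left out a library, and Bax in 8, losing its call without WT library 2, 3 or 4 or Atg16l1ΔIEC library 1, 2 or 3. The median over the 9 genes was 0.10, beside 0.00 over all genes.

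In Atg16l1/Rnaseh2bΔIEC against WT, 2 of the 9 genes were called higher (Bax and Bbc3) and 0 lower, with backgrounds of 8.1% and 8.01%. Bax and Bak1 had every library above WT and none had every library below, where 11.4% and 10.9% of all genes did. The median was 0.08, beside 0.00 over all genes. With the pairs as a random block 0 of the 9 were called (Bax adjusted p = 0.0571, 2 genes at an unadjusted p under 0.05), where 0.664% of all genes were called. Bax was called in all 14 fits that left out a library and Bbc3 in 6, losing its call without WT library 1 or 2, either Rnaseh2bΔIEC library or any Atg16l1/Rnaseh2bΔIEC library. Within lane 1, with 2 Atg16l1/Rnaseh2bΔIEC libraries that are a pair, Bax (0.25) and Apaf1 (-0.19) were called and Bbc3 was not (0.24, adjusted p = 0.18). In that fit 10.2% of all genes were called.

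Between knockouts, 0 of the 9 genes were higher and 2 lower (Bcl2l1 and Bak1) in Atg16l1/Rnaseh2bΔIEC than in Rnaseh2bΔIEC, with backgrounds of 11.1% and 14.4%. Both had every library below, where 24.1% of all genes lay wholly above and 25.8% wholly below. Against Atg16l1ΔIEC, 2 genes were higher in Atg16l1/Rnaseh2bΔIEC (Bax and Apaf1) and 1 lower (Bcl2l1), with backgrounds of 12.6% and 12.5%. Of these, only Bcl2l1 did not overlap, where 12.1% and 11.8% of all genes lay wholly above and below. With the pairs as a random block, 0 of the 9 were called in either comparison, while 1 gene and 3 genes, respectively, had an unadjusted p under 0.05, with Bcl2l1 at an adjusted p of 0.0594 against Rnaseh2bΔIEC. In that fit 5.41% and 3.73% of all genes were called, respectively. Against Rnaseh2bΔIEC, both calls were lost without either Rnaseh2bΔIEC library, and that of Bak1 also without Atg16l1/Rnaseh2bΔIEC library 3 or 4. Against Atg16l1ΔIEC, Bcl2l1 lost its call without Atg16l1ΔIEC library 3 or 4 or Atg16l1/Rnaseh2bΔIEC library 2, Bax without Atg16l1ΔIEC library 4, and Apaf1 in 7 of the 14 fits. Within lane 2, with 2 libraries of each genotype, Bcl2l1 was lower in Atg16l1/Rnaseh2bΔIEC than in Rnaseh2bΔIEC by -0.29 and the difference of Bak1 was -0.10 (adjusted p = 0.164). In that fit 28.9% of all genes were called.

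**Figure D3:**
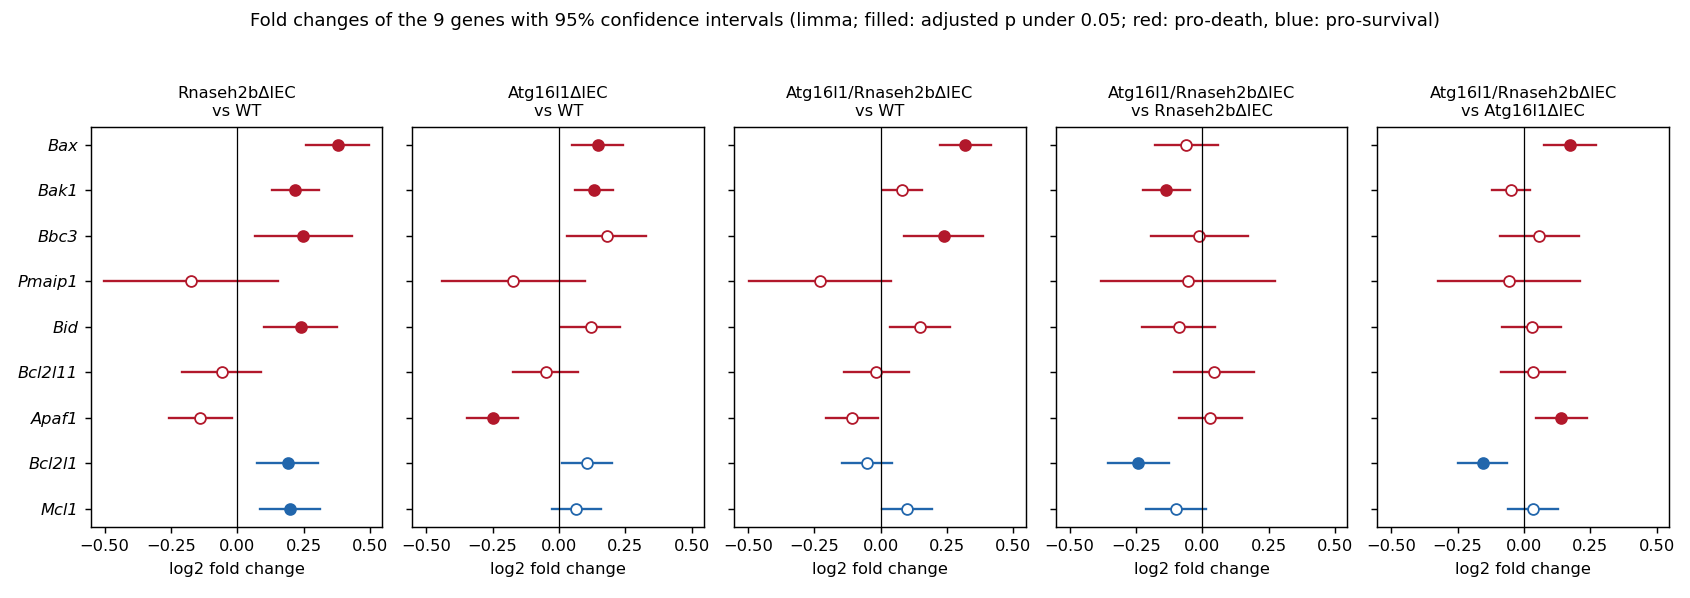
Log2 fold change (x axis) of each gene (y axis) in 5 comparisons, with 95% confidence intervals of limma as lines, filled symbols for adjusted p under 0.05, red for pro-death and blue for pro-survival genes. Bax is called in 4 of the panels, and Bcl2l1 moves from 0.19 in Rnaseh2bΔIEC against WT to -0.24 in Atg16l1/Rnaseh2bΔIEC against Rnaseh2bΔIEC.

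An interaction between the Rnaseh2b and Atg16l1 deletions was called for 4 of the 9 genes, beside 35.1% of all genes, so the count alone says little about the members. WT was in lane 1 and both single knockouts in lane 2, so this contrast cannot separate deletion from lane. This interaction, the difference between Atg16l1/Rnaseh2bΔIEC and Atg16l1ΔIEC minus that between Rnaseh2bΔIEC and WT, was called lower for 3 genes and higher for 1, with backgrounds of 18.1% and 17%. It was -0.345 for Bcl2l1 (SE 0.07, adjusted p = 0.00218), -0.27 for Bak1 (SE 0.05, adjusted p = 0.00214), -0.21 for Bax (SE 0.07, adjusted p = 0.0376) and 0.28 for Apaf1 (SE 0.07, adjusted p = 0.00913). For Bcl2l1 the difference with the Rnaseh2b deletion was 0.19 where Atg16l1 was intact and -0.16 where it was deleted, so the direction was opposite. For Bax both differences were rises, of 0.38 and 0.17. For Apaf1 they were -0.14 and 0.14, and for Bak1 0.22 and -0.05. With the pairs as a random block Bcl2l1 (adjusted p = 0.024) and Bak1 (adjusted p = 0.049) were still called, and with lane as a covariate the interaction of Bax was -0.01 and that of Bak1 -0.17, neither called. In these fits 12.1% and 20.2% of all genes were called, respectively. Bcl2l1, Bak1 and Apaf1 were called in all 14 fits that left out a library and Bax in 7. Both deleted genes were at higher levels in Atg16l1/Rnaseh2bΔIEC than in the matching single knockout, and the part of this in the interaction was not tested.

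Pro-death and pro-survival transcripts were compared within each library as the mean log2 value of the 7 pro-death genes minus that of Bcl2l1 and Mcl1, given as a description without a test. The balance was -1.25 ± 0.03 (SD, n = 4) in WT, -1.32 ± 0.01 (n = 4) in Atg16l1ΔIEC, -1.34 ± 0.04 (n = 2) in Rnaseh2bΔIEC and -1.21 ± 0.02 (n = 4) in Atg16l1/Rnaseh2bΔIEC libraries. Its libraries ranged from -1.29 to -1.21 in WT and from -1.24 to -1.19 in Atg16l1/Rnaseh2bΔIEC, which overlapped, while all 6 single-knockout libraries were below all Atg16l1/Rnaseh2bΔIEC and WT libraries. In Rnaseh2bΔIEC organoids the pro-death mean was 0.10 above WT and the mean of Bcl2l1 and Mcl1 0.19 above it, so this balance moved by -0.09 towards these 2 genes. The pro-survival genes Bcl2 (-0.26, adjusted p = 0.0308) and Bcl2l2 (-0.21, adjusted p = 0.0264) did not enter it and were lower in that comparison. The shift therefore does not describe the pro-survival genes as a whole. In Atg16l1/Rnaseh2bΔIEC organoids the pro-death mean was 0.06 and the pro-survival mean 0.02 above WT, a balance of 0.04 above WT and 0.13 above Rnaseh2bΔIEC.

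The balance depended on which genes entered it. Bax minus Bcl2l1, a pair chosen after the values were seen and given without a test, was 0.28 to 0.38 in WT, 0.25 to 0.56 in Atg16l1ΔIEC, 0.48 to 0.55 in Rnaseh2bΔIEC and 0.55 to 0.83 in Atg16l1/Rnaseh2bΔIEC libraries. All Atg16l1/Rnaseh2bΔIEC libraries were above all WT libraries and at or above the Rnaseh2bΔIEC libraries, and Atg16l1ΔIEC library 1 overlapped them. In Atg16l1/Rnaseh2bΔIEC, Bax minus Bcl2l1 was 0.83 and 0.80 in libraries 1 and 2 of lane 2. In libraries 3 and 4 of lane 1 it was 0.61 and 0.55, so lane and pair cannot be told apart. With lane as a covariate, the differences of Bax and Bcl2l1 from WT were 0.25 and 0.29 in Rnaseh2bΔIEC, and 0.02 and 0.21 in Atg16l1ΔIEC. In Atg16l1/Rnaseh2bΔIEC they were 0.25 and 0.0005. The ranking of genotypes thus depended on how lane was treated. The effectors Bax and Bak1 minus Bcl2l1 and Mcl1, a comparison also chosen after the values were seen, gave -0.01 ± 0.03 in WT, 0.04 ± 0.05 in Atg16l1ΔIEC, 0.09 ± 0.01 in Rnaseh2bΔIEC and 0.17 ± 0.07 in Atg16l1/Rnaseh2bΔIEC libraries. The Atg16l1/Rnaseh2bΔIEC values were 0.175 and 0.258 in lane 2 and 0.110 and 0.122 in lane 1. With all 7 pro-death genes, Pmaip1, Apaf1 and Bcl2l11, which were lower on average in each knockout than in WT, pulled the mean down.

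**Figure D4:**
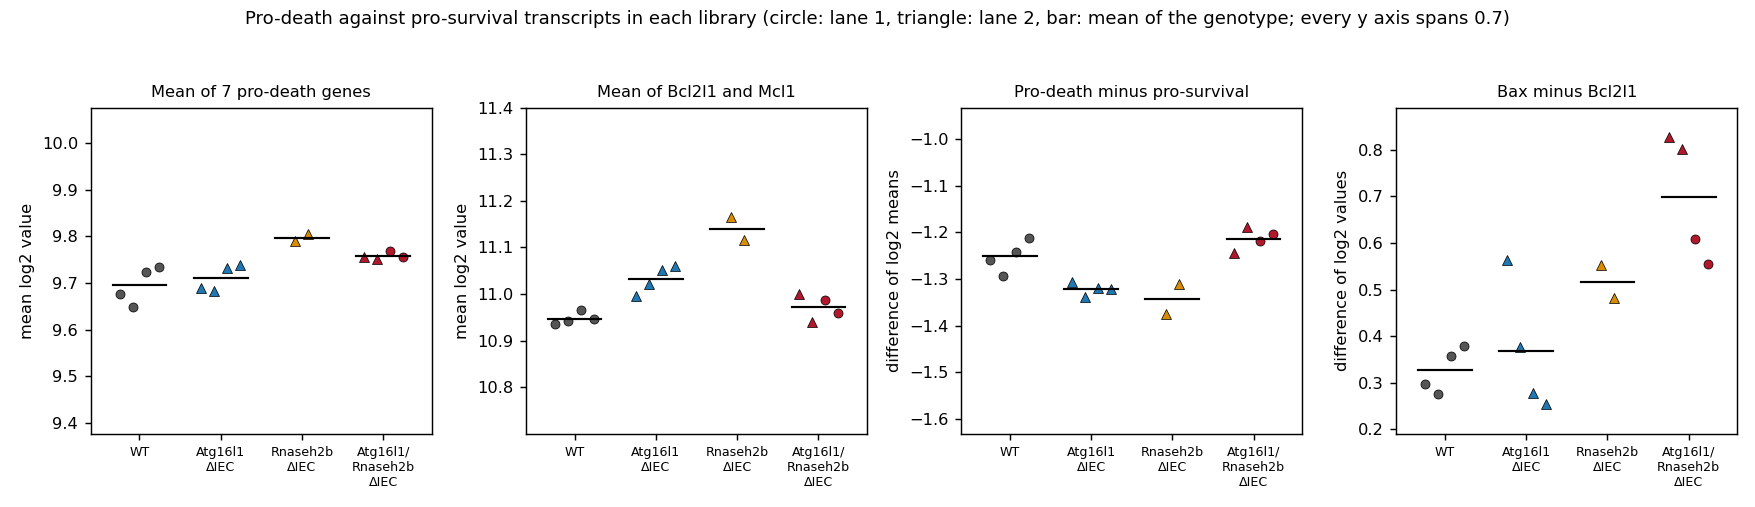
Mean log2 value of the 7 pro-death genes, of Bcl2l1 and Mcl1, their difference, and Bax minus Bcl2l1 (y axes, each spanning 0.7) in each library by genotype (x axis). Circles are lane 1, triangles lane 2 and bars genotype means. The 7-gene difference is lowest in Rnaseh2bΔIEC (-1.34) and highest in Atg16l1/Rnaseh2bΔIEC (-1.21), and Bax minus Bcl2l1 is highest in Atg16l1/Rnaseh2bΔIEC (mean 0.70).

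Of 39 other genes of the pathway, listed with earlier results of these data known, 38 were in the table and 34 were tested. In Rnaseh2bΔIEC against WT, 6 rose and 6 fell, beside 14.4% and 12.3% of all genes, and the median was 0.01. The mitochondrial release genes and caspases held 4 of the rises and 0 falls among 12 tested, among them the executioner caspase gene Casp6 (0.40, SE 0.12, adjusted p = 0.0293) and Cycs, which encodes cytochrome c (0.39, SE 0.09, adjusted p = 0.00714). The other BCL2 family genes held 1 rise and 5 falls among 12 tested. The rise was of the BH3-only gene Bad (0.39, adjusted p = 0.00871), and the largest falls were of Bcl2l15 (-0.54, adjusted p = 0.0432), Bnip3, a mitophagy receptor (-0.33, adjusted p = 0.0288), and Bcl2, the founding pro-survival gene (-0.26, adjusted p = 0.0308). Bcl2 thus fell where its relatives Bcl2l1 and Mcl1 rose. The inhibitors of apoptosis held no call among 5, and the receptor branch that activates BID had 1 rise and 1 fall among 5.

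In Atg16l1ΔIEC against WT, 2 of the 34 rose and 3 fell, beside 8.73% and 10.4% of all genes. The death receptor gene Fas rose by 0.25 (adjusted p = 0.0244) and Birc5, which encodes survivin, by 0.18 (adjusted p = 0.00894). The falls were of the TRAIL receptor gene Tnfrsf10b (-0.19, adjusted p = 0.00855), of Casp8, whose product cleaves BID (-0.18, adjusted p = 0.027), and of Bcl2l14 (-0.10, adjusted p = 0.024). In Atg16l1/Rnaseh2bΔIEC against WT, 2 rose and 3 fell, beside 8.1% and 8.01% of all genes. The effector-like Bok (0.32, adjusted p = 0.0248) and the mitochondrial protease gene Htra2 (0.16, adjusted p = 0.0393) rose, and Cflar, which encodes an inhibitor of caspase-8 (-0.19, adjusted p = 0.0209), Casp9, the partner of APAF1 (-0.16, adjusted p = 0.0199), and Bcl2l14 (-0.09, adjusted p = 0.0463) fell.

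Between Atg16l1/Rnaseh2bΔIEC and Rnaseh2bΔIEC, 4 of the 34 were higher and 4 lower in Atg16l1/Rnaseh2bΔIEC, beside 11.1% and 14.4% of all genes. Bcl2 (0.38, adjusted p = 0.00498), Bok (0.31, adjusted p = 0.0439) and Birc6, a large inhibitor of apoptosis (0.28, adjusted p = 0.0426), were higher, and Casp6 (-0.36, adjusted p = 0.0485), Cycs (-0.29, adjusted p = 0.0333) and Bad (-0.29, adjusted p = 0.038) were lower. Bcl2 and Bcl2l1 therefore differed in opposite directions between these genotypes. Between Atg16l1/Rnaseh2bΔIEC and Atg16l1ΔIEC, 4 were higher and 6 lower in Atg16l1/Rnaseh2bΔIEC, beside 12.6% and 12.5% of all genes, led by Birc6 (0.29, adjusted p = 0.0146), Tnfrsf10b (0.23, adjusted p = 0.00242) and Bnip3l (0.13, adjusted p = 0.0419) and by Bcl2l15 (-0.45, adjusted p = 0.0406), Cflar (-0.20, adjusted p = 0.011) and Casp9 (-0.17, adjusted p = 0.0114). The interaction was called higher for 5 and lower for 4 of the 34, beside 17% and 18.1% of all genes, with Birc6 (0.42, adjusted p = 0.0149), Bcl2 (0.42, adjusted p = 0.00792) and Tnfrsf10b (0.40, adjusted p = 0.000744) at one end and Bad (-0.49, adjusted p = 0.00692), Fas (-0.49, adjusted p = 0.00484) and Cycs (-0.32, adjusted p = 0.0449) at the other.

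**Figure D5:**
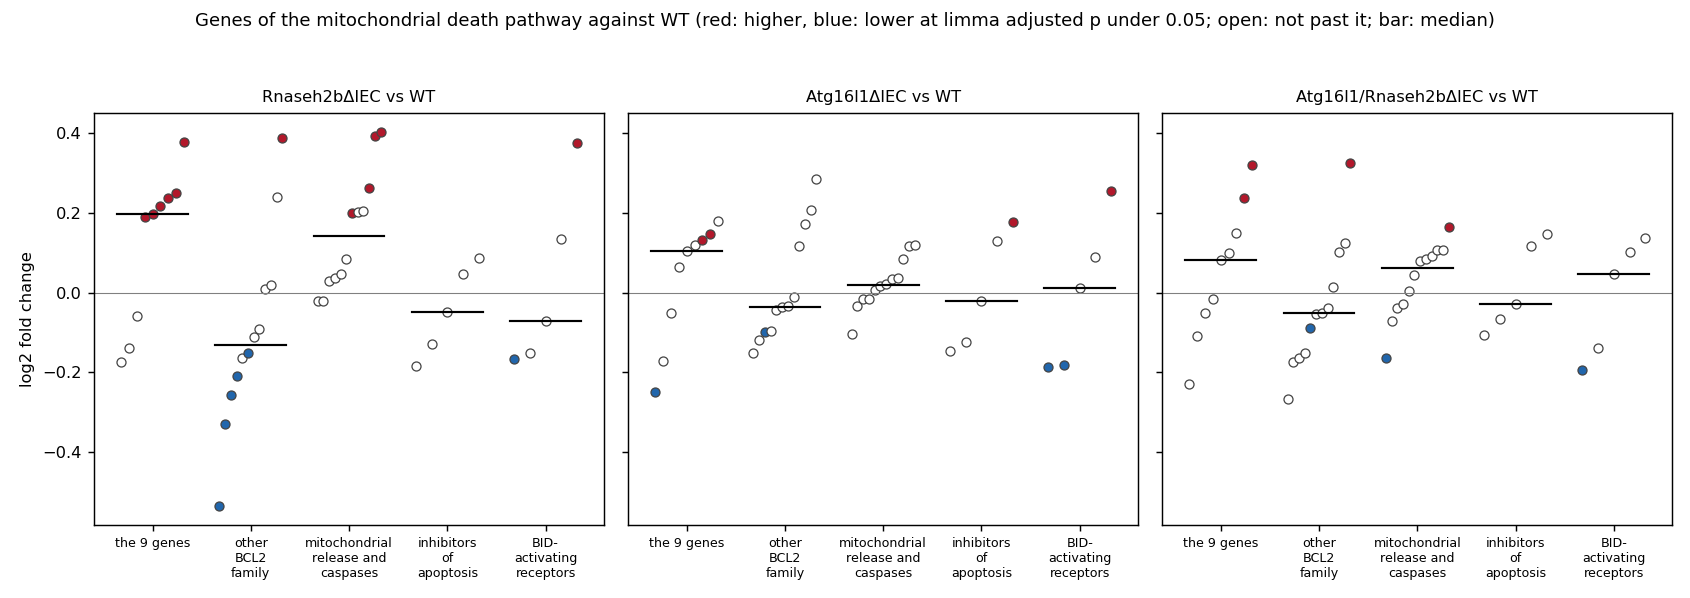
Log2 fold change against WT (y axis) of the 9 genes and of 34 other tested pathway genes by list (x axis), 1 point a gene, in the 3 knockouts. Red and blue points were higher and lower at a limma adjusted p under 0.05, open points did not pass, and bars are medians. In Rnaseh2bΔIEC the 9 genes have a median of 0.20 and the other BCL2 family genes one of -0.13.

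Trp53, which encodes p53, a regulator of Bax, Bbc3 and Pmaip1, was not called in any comparison, with differences from WT between -0.03 and 0.13. Its target Ccng1 rose by 0.28 (adjusted p = 0.0178) in Rnaseh2bΔIEC and by 0.41 (adjusted p = 0.00212) in Atg16l1/Rnaseh2bΔIEC against WT, and Mdm2 by 0.23 (adjusted p = 0.0062) in Atg16l1/Rnaseh2bΔIEC, with a difference of 0.16 (adjusted p = 0.0539) in Rnaseh2bΔIEC. In Atg16l1ΔIEC organoids, where Bax rose by 0.15, the differences of Ccng1 and Mdm2 were -0.01 (adjusted p = 0.945 and 0.856), and Cdkn1a fell by 0.33 (adjusted p = 0.0159). The differences of Cdkn1a from WT were -0.01 (adjusted p = 0.941) in Rnaseh2bΔIEC and -0.12 (adjusted p = 0.327) in Atg16l1/Rnaseh2bΔIEC. Bax and Ccng1 were thus both called in the genotypes without Rnaseh2b, while the p53 targets Cdkn1a and Pmaip1 were not called in either against WT.

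Over the 14 libraries, which share genotype, lane and pair structure, the members did not move as a block. Bbc3 and Bid had a Pearson r of 0.84, Bid and Mcl1 of 0.76, Bax and Mcl1 of 0.76, and Bax and Bbc3 of 0.69. Bax had an r of 0.02 with Bcl2l1 and of -0.60 with Pmaip1. The genes most like Bax were Ciapin1 (r = 0.96), Ddc (0.95), Letm1 (0.95), Bzw1 (0.94) and Mrpl20 (0.94), all lowest in WT and highest in Rnaseh2bΔIEC by genotype mean.

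Cell type markers moved beside these genes, and their part in the results was not tested. Of 11 enterocyte genes, 10 were higher in Rnaseh2bΔIEC than in WT (median 1.22) and 10 lower in Atg16l1/Rnaseh2bΔIEC than in Rnaseh2bΔIEC, and the log2 of their summed level was 17.49 to 18.13 in WT, 17.78 to 18.55 in Atg16l1ΔIEC, 18.61 to 18.75 in Rnaseh2bΔIEC and 17.23 to 17.82 in Atg16l1/Rnaseh2bΔIEC libraries. The 6 members called in Rnaseh2bΔIEC against WT and the 2 called lower in Atg16l1/Rnaseh2bΔIEC against Rnaseh2bΔIEC moved in the direction of this list. In the latter comparison Bbc3 (-0.01), Bax (-0.06), Bid (-0.09) and Mcl1 (-0.10) were not called. In Atg16l1/Rnaseh2bΔIEC against WT, 1 enterocyte gene was higher and 2 lower (median -0.28), while Bax and Bbc3 were called higher. Of 8 stem cell genes, 6 were lower in Atg16l1ΔIEC than in WT, and of 7 goblet cell genes 4, at summed log2 levels of 14.80 to 15.09 and 15.19 to 15.49 in Atg16l1ΔIEC against 15.38 to 15.51 and 15.66 to 16.19 in WT libraries. Apaf1 was called lower in the same comparison. In Rnaseh2bΔIEC against WT, 3 of 7 goblet, 3 of 4 tuft and 2 of 8 stem cell genes were lower. Against Rnaseh2bΔIEC, 6 goblet, 4 of 7 enteroendocrine and 3 stem cell genes were higher in Atg16l1/Rnaseh2bΔIEC, and 1 stem cell gene, Olfm4, was lower (-1.34, adjusted p = 0.012). Against Atg16l1ΔIEC, where Bax and Apaf1 were called higher and Bcl2l1 lower, all 7 goblet, 7 stem, 5 of 8 Paneth and 4 enteroendocrine genes were higher in Atg16l1/Rnaseh2bΔIEC and 4 enterocyte genes lower. The interaction was called lower for 10 enterocyte genes and higher for 7 goblet, 7 stem, 5 enteroendocrine and 3 Paneth cell genes, beside the 4 members called there. Of 8 Paneth cell genes, 4 were higher in Atg16l1/Rnaseh2bΔIEC than in WT, with summed log2 levels of 15.47 to 15.87 against 14.97 to 15.09. The summed log2 level of 8 proliferation genes was 15.07 to 15.30 in all libraries. Against WT, 1 of them (Top2a) was lower in Rnaseh2bΔIEC and in Atg16l1ΔIEC, and 2 (Mcm2 and Mcm5) were higher in Atg16l1/Rnaseh2bΔIEC.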

How the data were processed

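The RNA of 14 small intestinal organoid cultures was analysed, grouped by the genotype in the labels. Per the labels and the study's methods, the authors prepared stranded mRNA libraries, used cutadapt, TopHat2 on the GRCm38 build, HTSeq and DESeq2 (versions not given in the sources used here). The authors deposited 1 table of 18781 genes with normalized values on a log2 scale. No source used here names the transformation, and low genes vary little (median SD between libraries 0.02 for genes with means of 0 to 2 and 0.107 for 8 to 10), so changes of low genes are understated, depth is unknown and no count test was run.

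Values were tested as deposited. limma 3.58.1 in R 4.3.3 (lmFit, contrasts.fit, eBayes with a mean trend) was fitted to the 14 libraries together, with a mean for each genotype as the only terms, on 12802 genes averaging 3.32 or more (10 on the linear scale), with Benjamini-Hochberg adjustment at 0.05. The fit was tested on simulated libraries drawn independently of each other. That test cannot show how the pairing of the libraries affects the p-values. Symbols and exon lengths were taken from GENCODE M21 (99.7% of identifiers matched). The members and lists were chosen with earlier results of these data known. Named genes were the 9 members, the deleted genes, Trp53, Mdm2, Ccng1 and Cdkn1a, the 3 largest rises and falls past the threshold among the other pathway genes in each comparison, and the 5 genes most like the member with the widest range. Alternatives were pseudocounts of 1 and 5, other filters, other scalings, lane or replicate number as a covariate, library pairs as a block or averaged, fewer groups or 1 lane, and leaving out each library. Same-numbered libraries of different genotypes did not deviate together as a rule (r from -0.50 to 0.44, over 0.1 in 7 of 18 pairs). The main fit therefore did not pair them by number. Library 1 of each knockout, all in lane 2, did deviate together (r 0.30 to 0.44), while their r with WT library 1 was -0.31 to 0.04. Whether these knockout libraries share a batch was not tested.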

Additional observations from a re-analysis of the deposited data

Results flagged for a closer look

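By limma's interaction term, the difference with the Rnaseh2b deletion varied with that of Atg16l1 for 4 of the 9 genes, where 35.1% of all genes were called. The 4 were Bax (-0.21), Bcl2l1 (-0.345), Apaf1 (0.28) and Bak1 (-0.27). Lane and genotype cannot be told apart in this term. The call of Bax ended with lane as a covariate (-0.01, adjusted p = 0.945), total scaling (adjusted p = 0.119), no filter (adjusted p = 0.0559) and the pairs as a random block (adjusted p = 0.253), and that of Bak1 with lane as a covariate (-0.17, adjusted p = 0.152). Apaf1 lost its call with the pairs as a random block (adjusted p = 0.0838). In the Atg16l1/Rnaseh2bΔIEC group, Bak1 of library 2 (11.51) stood apart from the other libraries by more than Dixon's limit. It was 1 such value among 30 groups of 4 libraries examined, where chance gives about 1 in 20, and the cause was not tested.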

How the results depend on the processing

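The values come from small groups, the depth is unknown, and only 2 Rnaseh2bΔIEC libraries enter any comparison with that genotype. Pseudocounts of 1 and 5 and the stricter filter changed none of the 54 differences in direction or call. Over all alternatives, 1209 of the differences kept direction and call, 116 lost a call, 19 gained one and 24 changed sign, and the causes were not tested.

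With total scaling 1 member was called in Atg16l1/Rnaseh2bΔIEC against Rnaseh2bΔIEC (28.8% of all genes), and Bbc3 there was 0.042 (0.0048 with upper quartile scaling). That scaling moved the share of called genes that were higher from 54% to 39.6% in Rnaseh2bΔIEC against WT, from 43.4% to 64.6% in Atg16l1/Rnaseh2bΔIEC against Rnaseh2bΔIEC and from 48.5% to 62.3% in the interaction. With lane as a covariate 3 members were called in Rnaseh2bΔIEC against WT (11.7% of all genes) and 1 in Atg16l1ΔIEC against WT (12.4%). The differences that changed sign were those of Pmaip1 from WT (0.36 in Rnaseh2bΔIEC, 0.36 in Atg16l1ΔIEC and 0.037 in Atg16l1/Rnaseh2bΔIEC) and in the interaction (-0.68), of Mcl1 in Atg16l1ΔIEC against WT (-0.032), of Bcl2l1 in Atg16l1/Rnaseh2bΔIEC against WT (0.0005) and of Bax in Atg16l1/Rnaseh2bΔIEC against Rnaseh2bΔIEC (0.0049). Within 1 lane, Pmaip1 (0.037) and Bcl2l1 (0.0005) in Atg16l1/Rnaseh2bΔIEC against WT and Bax in Atg16l1/Rnaseh2bΔIEC against Rnaseh2bΔIEC (0.0049) changed sign in the same way.

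With the replicate block, 1 member was called in Atg16l1/Rnaseh2bΔIEC against Rnaseh2bΔIEC (23.4% of all genes) and Pmaip1 in the interaction was -0.026. It moved no other count of calls by over 1.5 times, though Bid in the interaction gained a call. With the library pairs as a random block (consensus correlation 0.645), 1 member was called in Rnaseh2bΔIEC against WT (5.69% of all genes). The count was 1 in Atg16l1ΔIEC against WT (3%) and 2 in the interaction (12.1%). It was 0 in Atg16l1/Rnaseh2bΔIEC against WT (0.664%), Rnaseh2bΔIEC (5.41%) and Atg16l1ΔIEC (3.73%). With the pairs averaged, which leaves 7 values, limma called 0 members in each of the 6 comparisons, with 1 to 3 at an unadjusted p under 0.05, and 0 or 1 of all 12802 genes, so the 0 says nothing about the members. When only the compared genotypes entered, 1 member was called in Atg16l1/Rnaseh2bΔIEC against each of WT, Rnaseh2bΔIEC and Atg16l1ΔIEC. In these fits 9.84%, 19.2% and 16.1% of all genes were called, respectively.

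When each library was left out in turn, the members called were 2 to 7 in Rnaseh2bΔIEC against WT, 2 to 3 in Atg16l1ΔIEC against WT, 1 to 3 in Atg16l1/Rnaseh2bΔIEC against WT, 0 to 2 in Atg16l1/Rnaseh2bΔIEC against Rnaseh2bΔIEC, 1 to 3 in Atg16l1/Rnaseh2bΔIEC against Atg16l1ΔIEC and 3 to 5 in the interaction. Both Rnaseh2bΔIEC counts were lowest without an Rnaseh2bΔIEC library, which leaves 1 library assumed to vary like the other groups. The balance then ranged from -0.12 to -0.060 in Rnaseh2bΔIEC against WT, from 0.10 to 0.16 in Atg16l1/Rnaseh2bΔIEC against Rnaseh2bΔIEC and from 0.17 to 0.23 in the interaction. Bcl2l11 ranged from -0.042 to 0.0091 in Atg16l1/Rnaseh2bΔIEC against WT and from -0.0065 to 0.064 in Atg16l1/Rnaseh2bΔIEC against Atg16l1ΔIEC. In Atg16l1/Rnaseh2bΔIEC against Rnaseh2bΔIEC, Bbc3 ranged from -0.026 to 0.0041, Pmaip1 from -0.15 to 0.059 and Apaf1 from -0.012 to 0.057. Pmaip1 ranged from -0.15 to 0.057 in Atg16l1/Rnaseh2bΔIEC against Atg16l1ΔIEC.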
